A study of Mus musculus with 11 samples.

Results

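Transcripts of the aminoacyl-tRNA synthetases were examined in retinal vascular endothelial cells of mice treated with oncostatin M (OSM) in the oxygen-induced retinopathy (OIR) model. The group comprised 38 of the 55359 genes in the count tables, namely 19 cytosolic enzymes, 16 mitochondrial enzymes and 3 scaffold proteins without synthetase activity. The genes were listed by symbol and matched to Ensembl identifiers, and the list was drawn up because Eprs1 had a very low p-value between OSM and PBS (rank 6 of 17050 genes tested). Values of that contrast are therefore given as a description and are no independent evidence about the list.

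All 11 mice were C57BL/6 (C57BL/6J in the study's methods) and underwent OIR, in which young mice are kept in high oxygen and retinal vessels regrow abnormally after return to room air. At postnatal day 12 (P12), 5 mice received an intravitreal injection of 0.5 µL OSM at 100 ng/µL and 6 received PBS, and CD31+/CD45- cells were sorted from digested retinas at P17. Each sample was 1 mouse with both retinas pooled, so replicates were separate animals. The mice came from 3 litters, each its own OIR run, with 2 OSM and 2 PBS mice in litters 1 and 2, and 1 OSM and 2 PBS mice in litter 3. The study's methods also state that contralateral eyes served for PBS injections, and whether both eyes of an OSM mouse received OSM is not given in the sources used here. The column headers for PBS mice 10 and 11 carry the numbers 11 and 12, and the mice are named here by their sample titles. Litter and OIR run cannot be told apart.

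Aminoacyl-tRNA synthetases join each amino acid to its matching tRNA, the first chemical step by which a cell reads the genetic code. Most amino acids have separate nuclear genes for a cytosolic and a mitochondrial enzyme, whereas Gars1 and Kars1 each encode both forms. In mammals several cytosolic enzymes assemble with the scaffold proteins Aimp1, Aimp2 and Eef1e1 into a multisynthetase complex, and shortage of amino acids is known to raise the transcription of many cytosolic synthetases through the kinase Eif2ak4 and the transcription factor ATF4.

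Libraries held 26697990 to 56033479 reads per mouse (median 32500202), and levels are CPM (counts of a gene scaled to a common library size) after TMM normalization. All 8 endothelial markers were detected in every mouse, with Pecam1, which encodes CD31, at 916 to 1819 CPM and Cldn5 at 3750.0 to 5724 CPM. The leukocyte markers were at or near 0, with 6 mice at 0 for Ptprc, which encodes CD45, and a summed level of at most 9.86 CPM over 5 genes. Transcripts of rods were present in all mice, and the sum over 5 rod markers was 4474 CPM in OSM mouse 5, 1462 CPM in OSM mouse 6 and 165 to 1201 CPM in the other mice. Mural cell markers summed to 316 to 739 CPM in OSM mice and 254 to 1487 CPM in PBS mice, and erythroid markers to 359 to 1129 CPM and 117 to 596 CPM, respectively. Müller glia markers summed to 188 to 406 CPM in OSM mice and 170 to 321 CPM in PBS mice. Of these markers Glul was at 159 to 279 CPM, and the rest had medians from 0 CPM (Aqp4) to 8.76 CPM (Dkk3).

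All 38 members passed the filter on low counts. Among the member classes, cytosolic enzymes were the most evenly expressed, with a median coefficient of variation over the 11 mice of 19.1% (8.66% to 26.9%). It was 38.4% (25.0% to 97.4%) for mitochondrial enzymes and 45.1% for all genes tested. Median levels were unlike, at 131, 20.7 and 11.7 CPM, respectively, and genes of matched level were not compared. The 7 cytosolic elongation factors examined below had a lower median coefficient of variation, 15.6%, at a median of 169 CPM. Mean levels of the cytosolic enzymes ran from 49.9 CPM for Cars1, which charges cysteine, to 244 CPM for Gars1, which charges glycine. Aars1, the alanine enzyme, varied least of all members (8.66%). Mitochondrial enzymes other than Lars2 lay between 6.71 CPM for Ears2, the glutamate enzyme, and 78.3 CPM for Iars2, the isoleucine enzyme, so fewer reads stood behind each of their values. The scaffold proteins had mean levels of 26.2 CPM for Eef1e1, 32.1 CPM for Aimp2 and 40.5 CPM for Aimp1.

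Eprs1 encodes the bifunctional enzyme that charges both glutamate and proline and lies at chr1:185095101-185161840 of GRCm39 on the plus strand. It stood at 203, 188, 164, 177 and 220.4 CPM in OSM mice 1, 2, 5, 6 and 9, and in PBS mice the lowest, median and highest values were 210.3, 239.5 and 302 CPM. In 4 of the 5 OSM mice the level was below that of every PBS mouse, and only OSM mouse 9 overlapped, lying above PBS mouse 8 of litter 2 but below both PBS mice of its own litter. Means were 190.4 ± 22.1 CPM (SD, n = 5) and 249.5 ± 36.3 CPM (SD, n = 6), and the log2 fold change with litter in the model was -0.34 (SE 0.072). The log2 difference was -0.29, -0.34 and -0.41 within litters 1, 2 and 3. In a bulk sample, fewer cells that express a gene cannot be told apart from less RNA of it per cell.

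Gars1 (chr6:55014927-55061231, plus strand) supplies glycyl-tRNA in the cytosol and in mitochondria. Its levels were 239, 258, 207, 223 and 194 CPM in the 5 OSM mice in the same order, and the lowest, median and highest PBS values were 212, 258 and 324 CPM. The groups overlapped widely, but within each litter the OSM mean was lower, by 0.30, 0.26 and 0.17 on the log2 scale. Means were 224 ± 25.3 CPM and 261 ± 42.3 CPM, and the log2 fold change was -0.25 (SE 0.076).

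Mars1, the cytosolic methionine enzyme of the complex (chr10:127128344-127147776, minus strand), stood at 113, 165, 135, 102 and 88.0 CPM in OSM mice and at 133, 148 and 167 CPM (lowest, median and highest) in PBS mice. OSM mouse 2 was near the top of the PBS range and 3 OSM mice were below all PBS mice. The log2 fold change was -0.36 (SE 0.145), with -0.12, -0.40 and -0.69 within litters 1, 2 and 3. In the annotation used here, 47.2% of its exonic bases are shared with Ddit3, and a read within this stretch cannot be assigned to either gene alone.

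Tars1, the cytosolic threonine enzyme (chr15:11382387-11399775, minus strand), was at 105, 78.9, 143, 119.6 and 94.3 CPM in OSM mice against 99.3, 149 and 188 CPM as lowest, median and highest PBS values. The groups overlapped, with 3 of the 5 OSM mice inside the PBS range. The log2 fold change was -0.43 (SE 0.171), the lowest of the cytosolic enzymes, and -0.40, -0.19 and -0.79 within litters 1, 2 and 3.

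Aimp1, a scaffold of the complex that is also processed to a secreted cytokine (chr3:132366242-132390131, minus strand), was at 51.0, 27.8, 28.9, 31.9 and 32.5 CPM in OSM mice and at 39.4, 44.8 and 52.1 CPM (lowest, median and highest) in PBS mice. OSM mouse 1 lay within the PBS range and the other 4 OSM mice lay below it. The log2 fold change was -0.40 (SE 0.178). Aimp2 and Eef1e1, the other scaffolds, had log2 fold changes of -0.10 (SE 0.219) and -0.04 (SE 0.208), and their signs were not the same in all litters. Aimp2 shares 90.4% of its exonic bases with Eif2ak1 and Pms2, so its own level is uncertain.

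**Figure D1:**
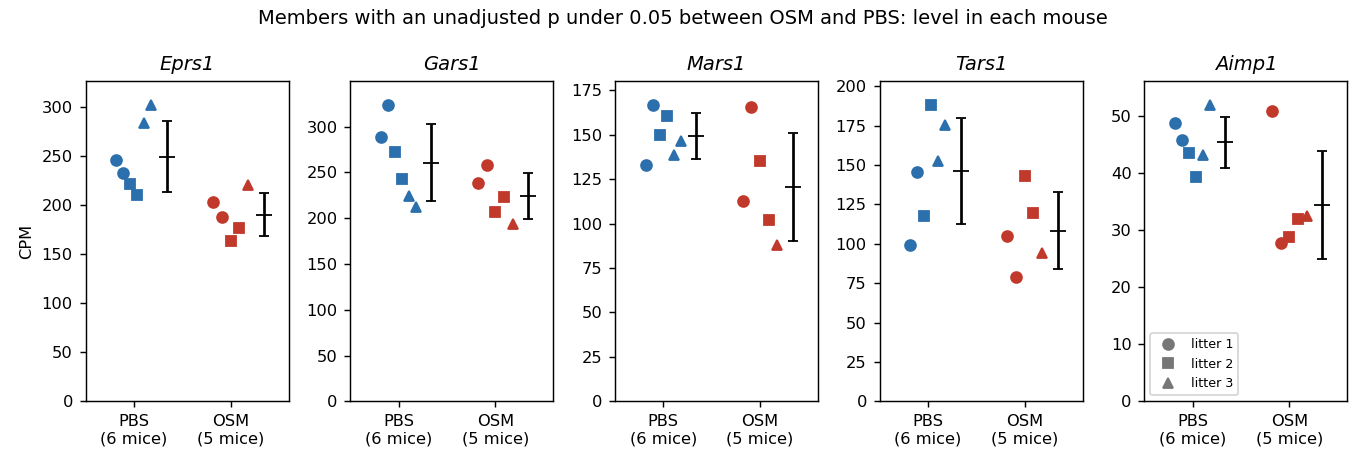
Level in CPM (vertical axes, each from 0) of Eprs1, Gars1, Mars1, Tars1 and Aimp1 in each mouse, with PBS in blue, OSM in red, the marker shape giving the litter and the bar the mean ± SD. All 5 genes have a lower OSM mean, and in each the groups overlap by at least 1 mouse.

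These 5 genes were the members with an unadjusted p under 0.05, all of them lower after OSM, where 2.71% of all genes tested were lower at this level and 2.25% higher. No member was called by edgeR at an adjusted p under 0.05 (lowest 0.955), and none of the 17050 genes was (0.0%, with 846 genes or 4.96% at an unadjusted p under 0.05). DESeq2 called 168 of the 22207 genes with an adjusted p (0.757%), among them Eprs1 (adjusted p 4.68e-09) and Gars1 (adjusted p 0.0111). No member had its OSM mice all on one side of the PBS mice, where 0.223% of all genes were entirely lower and 0.182% entirely higher in OSM mice. The count of 5 was 2 without PBS mouse 4 or without PBS mouse 8, and 3 without OSM mouse 6, without OSM mouse 9, without litter 2, without litter 3 or without the litter term.

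Across the cytosolic enzymes, 15 of 19 had a log2 fold change below 0, with a median of -0.14 and a range of -0.43 to 0.16. Over all genes tested the share below 0 was 51.6% and the median was -0.01. Genes lower in all 3 litters numbered 7 of 19 (Eprs1, Farsb, Gars1, Hars1, Kars1, Mars1 and Tars1), against 12.8% of all genes, and only Lars1, the leucine enzyme, was higher in all 3 (11.3% of all genes). The 4 enzymes with a fold change above 0 were Lars1 at 0.16 (SE 0.140), Wars1 at 0.14 (SE 0.106), Sars1 at 0.04 (SE 0.125) and Aars1 at 0.03 (SE 0.101). Over all alternatives the fold change took both signs in 6 cytosolic enzymes (Aars1, Farsa, Iars1, Qars1, Rars1 and Sars1). Wars1 charges tryptophan and is the synthetase known to be induced by interferon. Of the 10 members of the multisynthetase complex listed here, 9 were below 0 with a median of -0.09, and of the 12 cytosolic enzymes outside it, 9 were below 0 with a median of -0.17.

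**Figure D2:**
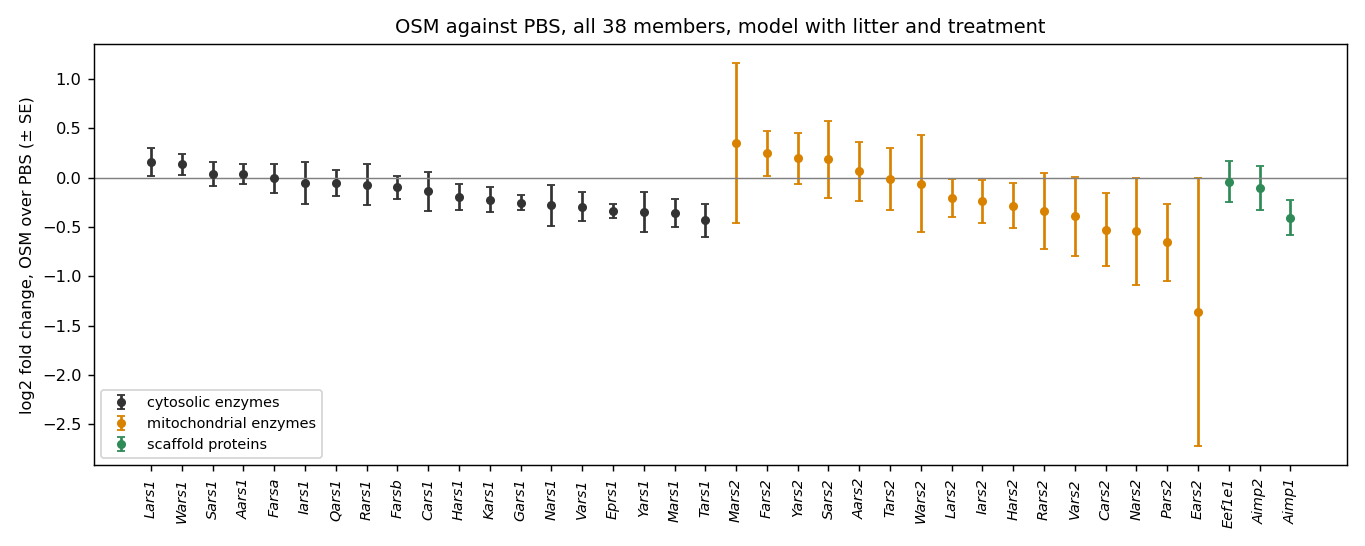
Log2 fold change of OSM over PBS (vertical axis) with its SE for each of the 38 members, from the model with litter and treatment, ordered by class and value. Cytosolic enzymes sit between -0.43 and 0.16 with short bars, and mitochondrial enzymes spread from -1.36 to 0.35 with longer ones.

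The summed level of the 19 cytosolic enzymes was 2404, 2519.5, 2299, 2467 and 2319 CPM in OSM mice 1, 2, 5, 6 and 9. In PBS mice the lowest, median and highest sums were 2576, 2646 and 2985 CPM. The groups did not overlap in this sum, which includes the gene that led to the list and was not tested. How often sums over other sets of 19 genes part the groups was not computed. The gap therefore cannot be read as particular to these genes. Without Eprs1 the sums met, with 2332 CPM in OSM mouse 2 and 2329.8 CPM in PBS mouse 3, and the difference of means changed from -289 to -229.8 CPM. The sum over the mitochondrial enzymes without Lars2 was 314 to 438 CPM in OSM mice and 357 to 476 CPM in PBS mice, and the ratio of the cytosolic to this mitochondrial sum was 6.53 ± 0.898 (SD, n = 5) and 6.59 ± 0.624 (SD, n = 6).

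Mitochondrial enzymes had a median log2 fold change of -0.22, with 11 of 16 below 0, but the values within litters were unlike. In litter 2, 14 of 16 were lower in the OSM mice, with a median difference of -0.55, whereas 7 of 16 were lower in litter 1 (median 0.06) and 9 of 16 in litter 3 (median -0.20). Of all 17050 genes tested, 8090, 8672 and 9130 were lower in litters 1, 2 and 3. The interaction test given below called no member, so a dependence on litter is not established. The largest differences of litter 2 were -2.08 for Nars2, the asparagine enzyme, -1.79 for Vars2, the valine enzyme, and -1.50 for Cars2, the cysteine enzyme. Nars2 and Cars2 were low in OSM mouse 6 alone, at 1.19 and 4.33 CPM, while Vars2 was at 4.73 and 8.87 CPM in OSM mice 5 and 6 and at 17.9 CPM or more in every other mouse.

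OSM mice 5 and 6 were also those with the highest rod sums (4474 and 1462 CPM, against 644 and 505 CPM in PBS mice 7 and 8 of litter 2) and the highest erythroid sums (887 and 1129 CPM, against 544 and 596 CPM), whose part in the result was not tested. Without litter 2 the median of the mitochondrial enzymes was 0.10, and without PBS mouse 7 it was -0.045. No mitochondrial enzyme had an unadjusted p under 0.05 over the 3 litters. Pars2, the proline enzyme, and Ears2 were the only mitochondrial enzymes lower in all 3 litters.

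Ears2 had the lowest mitochondrial fold change, -1.36 (SE 1.36). No read of Ears2 was counted in OSM mouse 5 and in PBS mouse 8, where a count of 0 allows up to 0.102 and 0.0861 CPM (3 reads), and its levels reached 6.52 CPM in OSM mice and 20.5 CPM in PBS mice. Wars2, the mitochondrial tryptophan enzyme, was at 3.03 CPM in OSM mouse 5 and at 15.6 to 18.2 CPM in the other OSM mice, against 5.77 to 28.8 CPM in PBS mice, and its log2 fold change was -0.06 (SE 0.492). Hars2, the mitochondrial histidine enzyme, was at 21.9 to 66.4 CPM in OSM mice and 44.5 to 64.9 CPM in PBS mice, with a log2 fold change of -0.29 (SE 0.229). For these genes the spread between mice was of the size of the difference or larger.

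**Figure D3:**
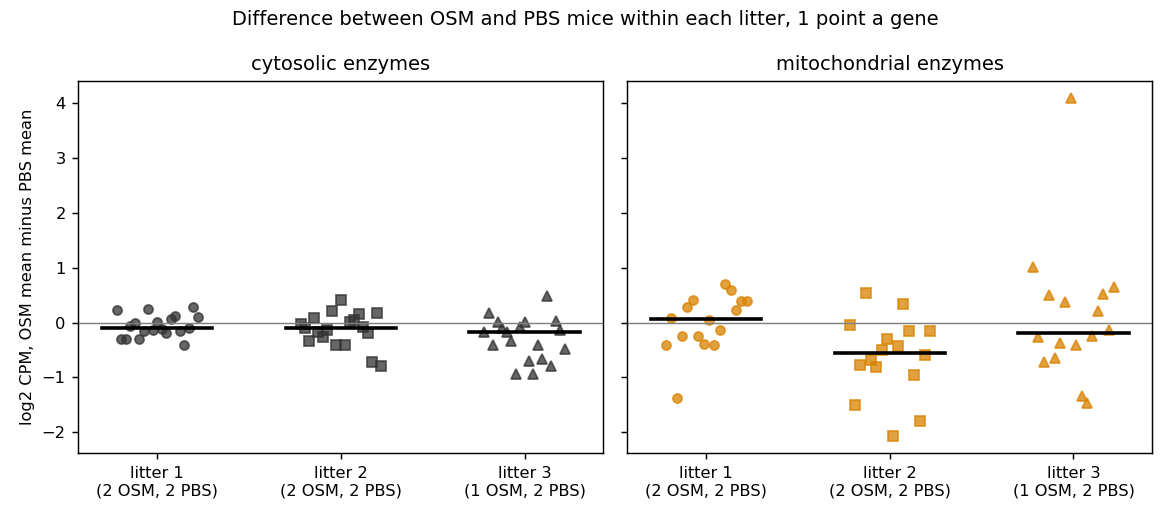
Difference of mean log2 CPM between OSM and PBS mice within each litter (vertical axis), 1 point a gene and the bar the median, for cytosolic (left) and mitochondrial (right) enzymes. Cytosolic medians are -0.10, -0.10 and -0.17, while mitochondrial medians are 0.06, -0.55 and -0.20. The point above 4 is Mars2, with 1 read in PBS mouse 11.

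Whether the OSM effect differed between litters was tested with an interaction term. No member and no other gene was called (0.0% of 17050; lowest adjusted p of a member 0.585, edgeR). At an unadjusted p under 0.05 there were 3 members, Iars1, Iars2 and Vars2, and 1095 genes in all (6.42%). For Iars1, the cytosolic isoleucine enzyme, the within-litter log2 differences were 0.24, 0.21 and -0.95 in litters 1, 2 and 3, and the only OSM mouse of litter 3 was at 85.9 CPM against 207 and 133 CPM.

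Differences between litters were not the values used to choose the genes and were tested in the same fit. For Eprs1, this test uses the same residual spread as the contrast that led to the list. Its litter result is therefore not independent of that choice. No member was called (lowest adjusted p 0.178, edgeR), beside 3 of 17050 genes (0.0176%). At an unadjusted p under 0.05 there were 6 members (Eprs1, Gars1, Hars1, Lars1, Lars2 and Eef1e1) and 1758 genes (10.3%). DESeq2's likelihood ratio test called 988 of 14352 genes (6.88%), among them 5 members (Eprs1, Gars1, Hars1, Lars1 and Eef1e1). EdgeR without the filter on low counts called 625 genes, of a number tested that is not given here, among them Lars2 (adjusted p 1.34e-13). For Lars2 the adjusted p was 0.348 in the edgeR fit with the filter and 0.069 in DESeq2's likelihood ratio test, so this call rests on that setting alone.

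The members that stood out between litters did not share a direction. Mean levels in litters 1, 2 and 3 were 218, 193 and 269 CPM for Eprs1 (edgeR adjusted p 0.178) and 277, 236 and 210.1 CPM for Gars1 (edgeR adjusted p 0.179). Lars1 was at 79.4, 98.6 and 124 CPM, and Hars1, the cytosolic histidine enzyme, at 57.6, 84.5 and 78.5 CPM. Eef1e1 was at 19.5, 32.0 and 27.5 CPM. Litter 1 was thus lowest for Lars1, Hars1 and Eef1e1 and highest for Gars1.

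Levels of a cytosolic and a mitochondrial enzyme for the same amino acid were compared within each mouse, per kilobase of annotated exon. Reads counted per kilobase of exon differed between the 2 kinds of enzyme in all 16 pairs tested. The adjusted p was 0.000977 in each (exact sign-flip permutation over 11 mice, two-sided), where 0.000977 is the smallest unadjusted p that 2048 flips allow. The test covers the spread between mice, not the choice of length or the origin of the reads. The cytosolic enzyme was higher in 15 of the 16 pairs, and in these it was higher in each of the 11 mice. Folds, as geometric means, ran from 3.05 for Cars1 over Cars2 to 33.8 for Nars1 over Nars2, with 31.3 for Wars1 over Wars2 and 27.4 for Mars1 over Mars2, 1 mouse with 1 read of Mars2 included. Farsa and Farsb, the subunits of the cytosolic phenylalanine enzyme, were both set against Fars2, so these pairs share a gene. Eprs1 exceeded Pars2 3.51-fold and was not tested against Ears2, which had mice with no read.

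Median levels were 19.7 CPM per kilobase for cytosolic enzymes, 2.86 for mitochondrial enzymes without Lars2 and 6.87 for scaffold proteins. Within the cytosolic class the highest levels per kilobase were those of Gars1 (29.6 ± 4.71, SD, n = 11) and Hars1 (29.2 ± 6.13), which differed by less than their spread, and the lowest were those of Cars1 (3.21 ± 0.670) and Eprs1 (9.55 ± 1.82). Hars2 was the highest mitochondrial enzyme after Lars2 (8.86 ± 2.30), and Ears2 (0.655 ± 0.637) and Wars2 (0.965 ± 0.448) were the lowest. With coding length in place of exon length the folds of the 15 pairs ran from 1.27 to 12.2. They rose for Aars1 over Aars2 (7.32), Sars1 over Sars2 (12.2) and Eprs1 over Pars2 (7.24) and fell for the rest. Hars1 over Hars2 held in 8 and Iars1 over Iars2 in 7 of 11 mice. The order within classes also depended on the length used. Per coding kilobase, Sars1 (118) and Wars1 (112) stood above Gars1 (109). Hars1 (47.3) and Eprs1 (48.3) lay near the cytosolic median of 49.9, and Cars1 (19.5) stayed lowest. Wars2 (14.2) lay above the mitochondrial median without Lars2 (10.4), and the scaffold median was 42.3.

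**Figure D4:**
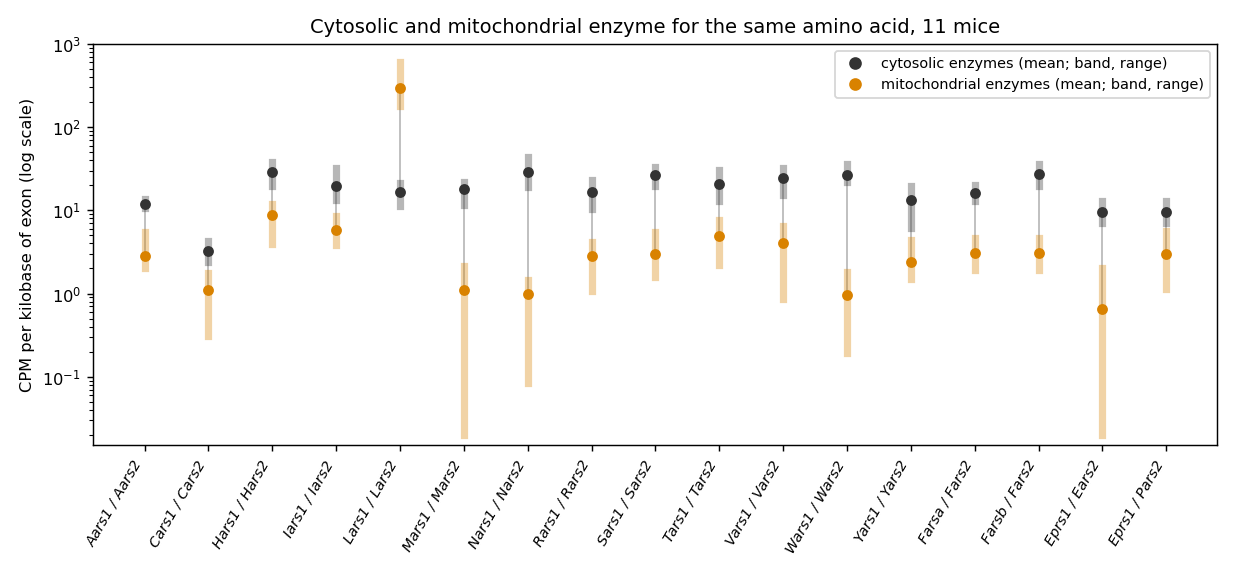
Level of the cytosolic (dark) and mitochondrial (orange) enzyme for the same amino acid, in CPM per kilobase of exon on a log axis, with points for the mean over 11 mice and bands for the range. The cytosolic enzyme is higher in every pair drawn but Lars1 and Lars2, and the bands of Mars2 and Ears2 are shortened at the lower edge of the axis because 1 mouse had 1 read and 2 mice had no read, respectively.

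The exception was Lars2, the mitochondrial leucine enzyme (chr9:123195952-123291731, plus strand), whose level per kilobase was 17.6-fold that of Lars1. It took 0.308% (OSM mouse 2) to 1.11% (PBS mouse 7) of all reads of a mouse. Read numbers ran from 108950 to 364872, with the ends in other mice because library sizes differed. Levels were 3827, 3166, 5825, 4764 and 6522 CPM in OSM mice and 4075, 5023 and 10858 CPM (lowest, median and highest) in PBS mice, the highest in PBS mouse 7. The log2 fold change was -0.21 (SE 0.193) and became 0.025 without PBS mouse 7 and 0.013 without litter 2.

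Because the mean of no other mitochondrial enzyme exceeded 78.3 CPM, the Lars2 value was compared with transcripts chosen after it had been seen. The large mitochondrial rRNA mt-Rnr2 was also lowest in OSM mouse 2 (3152 CPM) and highest in PBS mouse 7 (12255 CPM), and litter 1 was lowest for both. The small mitochondrial rRNA mt-Rnr1 was also lowest in OSM mouse 2 (245 CPM) but highest in OSM mouse 5 (1313 CPM), with 1226 CPM in PBS mouse 7. A stretch of 75 bases, positions 3315 to 3389 of the 3934-base Lars2 transcript, matched the noncoding RNA Gm15564 at 98.7% identity, and Gm15564 itself had 1.80 to 6.25 CPM, again highest in PBS mouse 7. How many of the reads counted for Lars2 came from its own mRNA was not tested, and its level is uncertain.

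**Figure D5:**
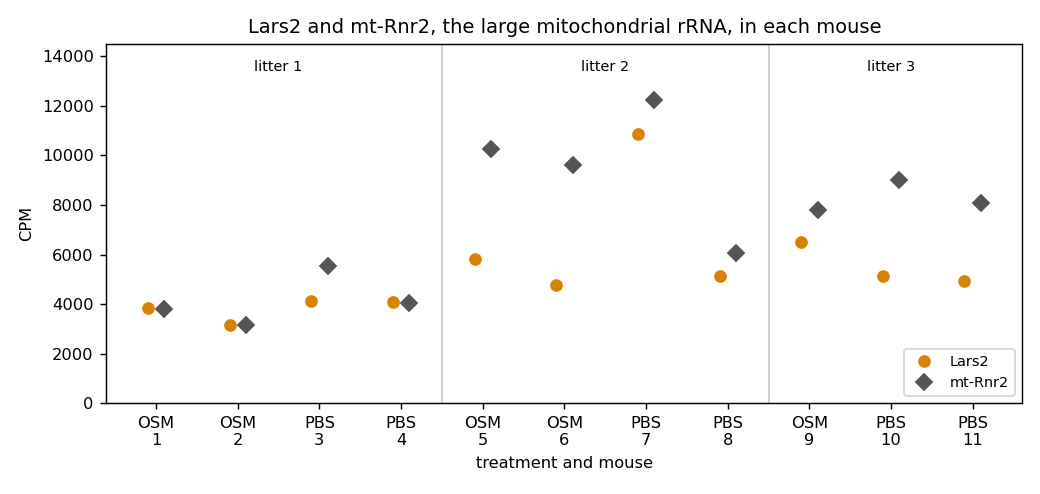
Level in CPM of Lars2 (circles) and mt-Rnr2 (diamonds) in each of the 11 mice, grouped by litter. Both are lowest in OSM mouse 2, at 3166 and 3152 CPM, and highest in PBS mouse 7, at 10858 and 12255 CPM.

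Genes that act beside the synthetases were examined as lists. None of the 7 eIF2alpha kinases and partners, 23 genes of the ATF4 pathway, 11 amino acid transporters, 7 cytosolic and 6 mitochondrial elongation factors and 12 tRNA accessory enzymes had an unadjusted p under 0.05 between OSM and PBS, where 4.96% of all genes did. Median log2 fold changes of these lists lay between -0.14 and 0.01. Atf4, the transcription factor of the amino acid response, was at 117 ± 9.39 CPM in OSM and 106 ± 22.9 CPM in PBS mice (log2 fold change 0.17, SE 0.110). Its targets Asns, which makes asparagine, and Trib3, a pseudokinase, had log2 fold changes of 0.01 (SE 0.236) and 0.50 (SE 0.379), and Ddit3, which encodes CHOP, 0.29 (SE 0.577). For Trib3 the within-litter log2 differences were -0.03, 0.02 and 2.03 in litters 1, 2 and 3, so its value rests on litter 3 with 1 OSM mouse. Ddit3 shares exonic bases with Mars1, as given above, which limits its value.

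Of 9 interferon-inducible genes, 6 had an unadjusted p under 0.05, all higher after OSM (2.25% of all genes), and none was called (lowest edgeR adjusted p 0.955). They were Irf7, Gbp2, Ifit1, Ifit3, Isg15 and Psmb8, with log2 fold changes from 0.53 (SE 0.161) for Psmb8, an immunoproteasome subunit, to 1.54 (SE 0.447) for Ifit3. Median within-litter log2 differences of the 9 genes were 0.34, 0.98 and 1.37 in litters 1, 2 and 3. In litter 1, Irf7 was lower (-0.15) and Isg15 nearly level (0.08), while the rest of the 6 were higher. This list too was chosen with earlier results of these data known. Wars1 stood at 167, 219, 160.1, 160.0 and 146 CPM in OSM mice and at 135 to 167 CPM in PBS mice, so that only OSM mouse 2 was above the PBS range.

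The 150 bases before the canonical transcript start are shown for Aars1 and Tars1, the only members with an amino acid response element (TGATGNAAN on either strand, the kind of site ATF4 binds) within 300 bases, and for Eprs1, which had none there. Sequences are from GRCm39 in the direction of the gene, with capitals for the response element, which reads as its reverse complement in both genes, and in Aars1 also for a STAT site (TTCNNNGAA, either strand). The stretches are chr8:111760358-111760507 (plus strand), chr15:11399752-11399901 (minus strand) and chr1:185094951-185095100 (plus strand).
Aars1: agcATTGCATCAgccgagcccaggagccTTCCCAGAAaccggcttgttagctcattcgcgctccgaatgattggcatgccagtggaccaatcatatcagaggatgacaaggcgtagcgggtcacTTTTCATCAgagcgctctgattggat
Tars1: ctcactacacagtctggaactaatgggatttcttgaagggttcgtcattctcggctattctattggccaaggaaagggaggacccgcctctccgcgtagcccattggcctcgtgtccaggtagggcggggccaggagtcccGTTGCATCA
Eprs1: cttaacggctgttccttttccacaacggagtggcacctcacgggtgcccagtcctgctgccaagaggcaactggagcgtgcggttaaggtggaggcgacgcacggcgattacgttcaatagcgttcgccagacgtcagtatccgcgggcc

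Counted from the transcript start, the response elements of Aars1 begin at positions -147 and -26 and that of Tars1 at position -9. The element was present in 2 of 38 members and in 2.71% of the 13341 promoters of tested protein-coding genes. A STAT site was present in 8 of 38 members (Aars1, Eef1e1, Fars2, Lars1, Nars2, Qars1, Rars2 and Tars1) and in 7.84% of those promoters. Aars1 and Tars1, which carry both motifs, had log2 fold changes of 0.03 (SE 0.101) and -0.43 (SE 0.171).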

How the data were processed

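Per the study's methods and the labels, cDNA was primed on poly(A) tails, PCR-amplified and read from a single end. The authors used STAR with GRCm39 and featureCounts with GENCODE genes, both at standard settings, and deposited raw counts of reads per gene for each mouse. Symbols, positions and exons were taken from GENCODE vM39, which holds 54749 of the 55359 genes, and promoters from GRCm39.

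Differences were tested with edgeR 4.0.16 in R 4.3.3 (TMM, filterByExpr with a count minimum of 10, robust quasi-likelihood F test, terms litter and treatment, Benjamini-Hochberg over 17050 genes, threshold 0.05), and log2 CPM used a prior count of 2. DESeq2 1.42.0 was an alternative. The fit was tested on simulated data. P-values measure the spread between single mice, and PCR copies could not be told from separate molecules, so floors from a count of 0 cover counting error only. Levels per length used the union of exons. Bases shared with other genes were kept in the length. Among cytosolic enzymes these were 47.2% of Mars1, 25.4% of Farsb and 22.7% of Yars1. Among mitochondrial enzymes they were 33.9% of Mars2, 31.4% of Yars2, 29.1% of Cars2 and 27.4% of Iars2. How this shifts the levels of the pairs was not tested.

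Members and gene lists were chosen with earlier results of these data known. Named in detail were Eprs1, members with an unadjusted p under 0.05, the 2 highest and 2 lowest per length of each enzyme class and the scaffolds, and of the other lists genes under that p and Atf4, Asns, Trib3 and Ddit3. 1 gene of the interferon-inducible list is not reported here. Further genes were named once their values were known.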

Additional observations from a re-analysis of the deposited data

Results flagged for a closer look

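Within each treatment group, 12 of the 76 combinations of a member and a group held a mouse far from the others on the log2 scale by Dixon's test. Chance gives about 1 in 20 if values are normally distributed, which was not tested. The share over all genes was not computed, so the count cannot be read as particular to these genes. The mice furthest below their group were OSM mouse 6 for Cars2 (4.33 CPM, others 13.6 to 15.3) and Nars2 (1.19 CPM on 34 reads, others 9.29 to 19.0), OSM mouse 5 for Wars2 (3.03 CPM, others 15.6 to 18.2) and Yars1, the cytosolic tyrosine enzyme (51.0 CPM, others 99.1 to 116), and OSM mouse 1 for Sars1 (154 CPM, others 198 to 216).

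PBS mouse 8 had 0 CPM of Ears2 and PBS mouse 11 had 0.0314 CPM of Mars2, the mitochondrial methionine enzyme, on 1 read. The mice furthest above their group were PBS mouse 7 for Lars2 (10858 CPM, others 4075 to 5136) and Yars2 (50.4 CPM, others 16.9 to 25.3), OSM mouse 9 for Aars2 (36.6 CPM, others 14.0 to 18.2), OSM mouse 6 for Mars2 (24.4 CPM, others 9.66 to 11.8) and OSM mouse 1 for Aimp1 (51.0 CPM, others 27.8 to 32.5). OSM mice 5 and 6 account for 5 of these 12 values, and both also had the highest rod sums, whose part was not tested.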

How the results depend on the processing

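No paired analysis was possible because no mouse number is shared between the groups, and litter was a term of the model instead. Between OSM and PBS, DESeq2 called 2 members (Eprs1 and Gars1) and 168 genes, and edgeR without a filter on low counts 65 genes and 0 members. The number of genes tested without the filter is not given here, so these 65 have no share beside them. With any 1 mouse left out, edgeR called 0 members and 0 genes. Between litters, the members called were 5 with DESeq2 and 1 without the filter, and 0 without any 1 mouse, where genes called ran from 0 to 44.

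The median of the mitochondrial enzymes was -0.44 without litter 1 and 0.10 without litter 2, and -0.27 to -0.045 with 1 mouse left out. Those of cytosolic enzymes (-0.20 to -0.08) and scaffold proteins (-0.25 to -0.01) kept their sign. Leaving out 1 mouse gave 2 to 6 members with an unadjusted p under 0.05.

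With 1 mouse left out, 13 of the 38 fold changes took both signs (5 cytosolic, 6 mitochondrial, 2 scaffold), and over all alternatives 16 did. Among the members named in detail these were Wars2 (-0.40 to 0.34 with 1 mouse left out, with 0.22, 0.34 and 0.08 without OSM mouse 5, PBS mouse 7 and PBS mouse 10, and 0.14 without litter 2), Lars2 (-0.42 to 0.025, and 0.013 without litter 2), Aimp2 (-0.25 to 0.029, and 0.15 without litter 1) and Eef1e1 (-0.15 to 0.12, with 0.02 and 0.12 without OSM mice 2 and 9, and 0.12 without litter 3). Over all alternatives Eprs1 was between -0.39 and -0.32 and Gars1 between -0.28 and -0.22. The count of pairs with the cytosolic enzyme higher was 15, and 16 with 0.5 reads added, where Eprs1 against Ears2 could be tested, and the sum without Eprs1 was added after seeing the data. Low read numbers limit Ears2, Mars2 and Nars2.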
